A study of Mus musculus with 13 samples.

Results

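The DRIP-seq peaks of 12 libraries were examined at the 10 mouse genes Ints1 to Ints10, which encode subunits of the Integrator complex. The genes were taken by name from a list of 22367 protein-coding genes, and each was extended by 1 kb on both sides. A peak is a stretch of genome where fragments pulled down by the S9.6 antibody, which binds RNA-DNA hybrids, piled up over the background expected from an input library. For each gene and library the bases under peaks, the presence of a peak within 1 kb of the annotated gene start (a start peak) and the peak's fold over the local background were read from the peak list. The 10 genes were taken by name, but with earlier results of these data known, and Ints6 is among the genes that the study itself shows, so its test below is not independent of the choice.

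All libraries came from N2a cells, a wild-type mouse neuroblastoma line, transfected with a scramble siRNA (siScramble) or with siRNA against DDX1 (siDDX1), an RNA helicase, or EXOSC3 (siEXOSC3), a cap subunit of the RNA exosome. Each group had 3 libraries from separate plates, and 1 further library made from DNA treated before the pulldown with RNase H, an enzyme that degrades RNA paired to DNA. The study asked where R-loops, the structures formed when RNA pairs with one DNA strand and displaces the other, change when either protein is depleted. Groups here follow the sample titles, but the peak names inside all 12 lists carry another group: lists titled siScramble name their peaks siDDX1, lists titled siDDX1 name them siEXOSC3, and lists titled siEXOSC3 name them siScramble. Every direction between groups below is given by title, and which of the 2 labels is right was not tested.

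Integrator binds the tail of RNA polymerase II and cleaves nascent RNA. It makes the ends of the small nuclear RNAs and also releases polymerases that stall soon after the start of protein-coding genes, and a phosphatase, PP2A, rides on the same complex. R-loops form most readily where the RNA is rich in G and where the polymerase slows, at gene starts and gene ends, so both ends of each Integrator gene were examined.

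The untreated libraries held 23882 to 42571 peaks and the RNase H libraries 3811 to 8034. The background pileup, a measure of depth, was 0.544 to 1.29 fragments in the untreated libraries, highest in siDDX1 replicate 1, and 1.13 to 1.60 in the RNase H libraries. Deeper libraries find weaker peaks. Neuroblastoma and neuronal markers were looked up in the same peaks, which show hybrids rather than RNA levels. Phox2a, Hand2 and Tubb3 had a start peak in 9 of 9 untreated libraries, 2 of the 10 markers in some and 5 in none, among them Stmn2, which had no peak anywhere in the gene window. The shares over all protein-coding genes were 11.1% in 9 of 9, 22.9% in some and 65.9% in none.

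The 10 genes fell into different patterns by where along the gene the peaks lay. Ints6 and Ints7 had a start peak in 9 of 9 untreated libraries and Ints9 in 8 of 9. Ints1, Ints3, Ints4 and Ints5 were covered mainly in the gene body or at the gene end. Ints2 was covered in 7 of 9 libraries, and Ints8 and Ints10 in 2 and 1 of 9. A start peak in 9 of 9 libraries was found for 2 of the 10 members and for 11.1% of all protein-coding genes, and no start peak in any untreated library for 6 of the 10 and for 65.9% of all genes. Of the members, 6 had some peak in the gene window in 9 of 9 libraries, against 26.2% of all genes. No test was made of these shares.

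**Figure D1:**
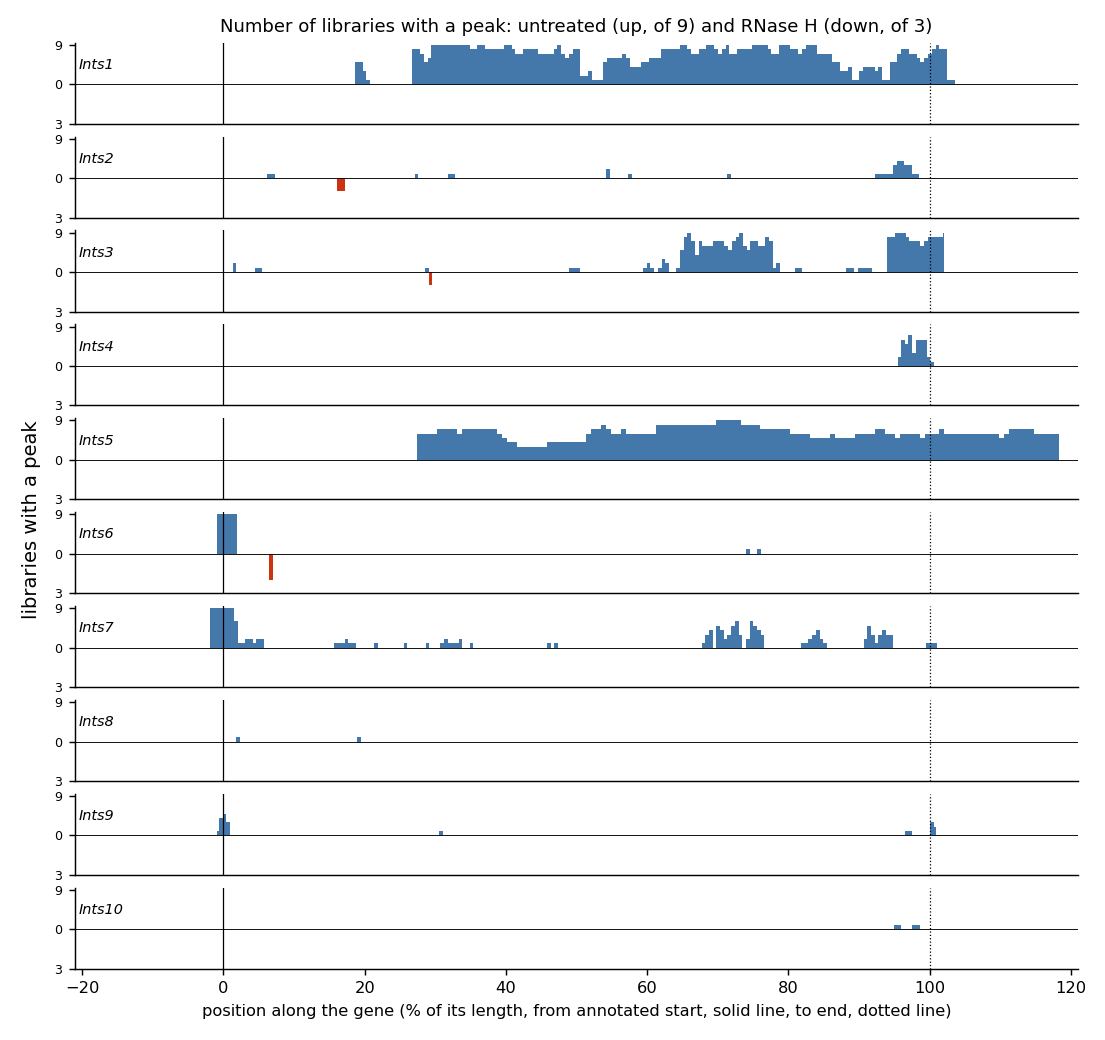
Number of libraries with a peak at each position along the 10 genes, drawn from 1 kb before the annotated start (solid line, 0%) to 1 kb past the end (dotted line, 100%), with the 9 untreated libraries upward in blue and the 3 RNase H libraries downward in red. Blue blocks stand at the start of Ints6, Ints7 and Ints9 and in the body or toward the end of Ints1, Ints3, Ints4 and Ints5, and red marks appear at 3 genes only, Ints2, Ints3 and Ints6.

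Ints6 (ENSMUSG00000035161.6, chr14:63295167-63379949, mm9, minus strand) encodes a subunit with a von Willebrand factor A domain that sits in the phosphatase module of the complex. Its start peak ran over chr14:63378234-63381200 in 8 of 9 untreated libraries, and in siDDX1 replicate 3 it ended at 63381037. The stretch spans the first 1716 bases of the gene and the bases before it. Both common edges lie on sites of the restriction enzymes that cut the DNA before the pulldown, a BsrGI site inside the gene and a SspI site upstream. Over all members, 31.6% of the 285 peaks of the untreated libraries had an edge on such a site. The 30 bases around both common Ints6 edges are shown along the plus strand of the chromosome, with the enzyme's site in capitals.
Ints6 inner edge, BsrGI, chr14:63378221-63378250: catttgaagtcaTGTACAcacatggacacc
Ints6 upstream edge, SspI, chr14:63381186-63381215: tgggcttttcctAATATTtcaaaaacaaaa

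A single fragment of 2800 bases between the BsrGI site and an EcoRI site held the start of Ints6, and it was covered from end to end in 9 of 9 untreated libraries and not at all in the 3 RNase H libraries. The fragment that holds the start of Ints7, 1622 bases from an EcoRI to a HindIII site, was also covered whole in 9 of 9. Over all protein-coding genes the start fragment was covered whole in 9 of 9 libraries for 2.09%. No base of the start fragment was covered in any untreated library at 6 of the 10 members and at 67.8% of all genes.

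Outside the start region Ints6 was almost bare. Only siDDX1 replicate 1, the deepest of the 9, had further peaks, 351 and 253 bases wide, 64306 and 63031 bases into the gene, and both were weak, with folds of 3.93 and 4.36. Covered bases were therefore 2716 in 8 libraries and 3320 in siDDX1 replicate 1. They count the start peak only up to the limit of the gene window 1 kb before the start, which lies inside the peak in all 9 libraries. Such constancy was rare: covered bases took 1 value in at least 8 of 9 libraries for 1.71% of the genes covered in all 9. Covered bases of Ints6 thus did not set the groups apart. The full peak was 2967 bases long in 8 libraries and 2804 in siDDX1 replicate 3, so its length differed in 1 library only, and its height was compared instead.

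**Figure D2:**
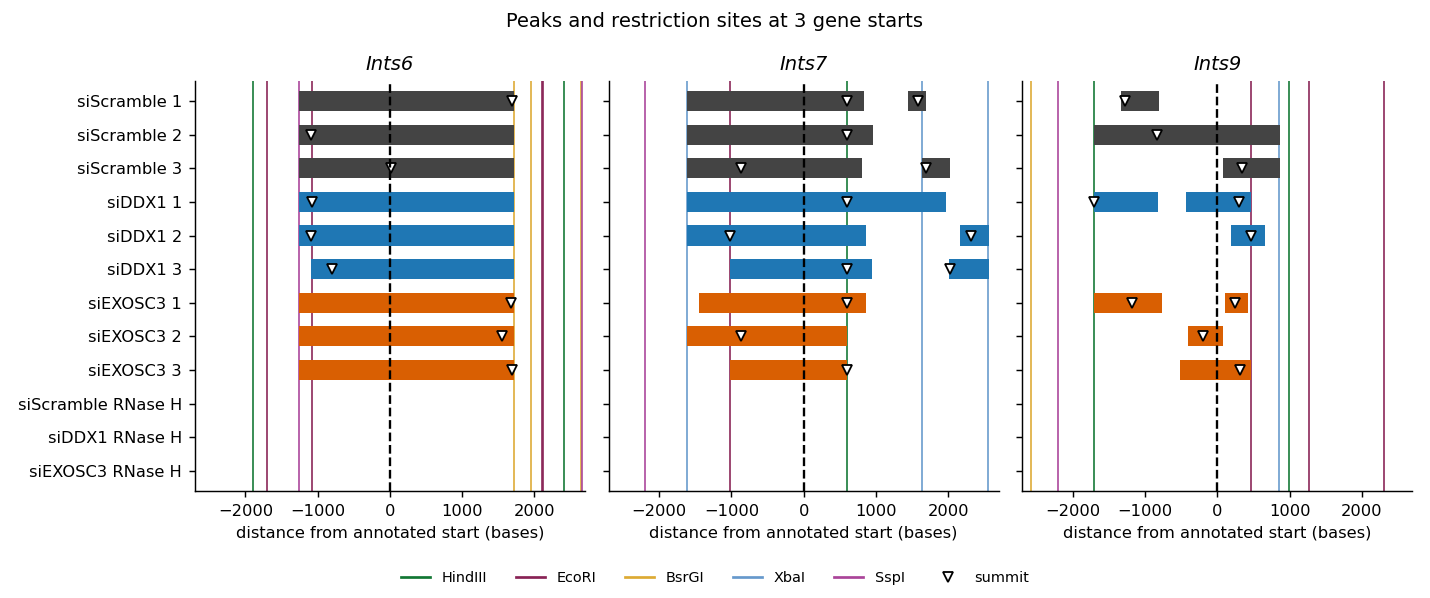
Peaks (bars, coloured by group) and their summits (triangles) around the annotated starts of Ints6, Ints7 and Ints9 in each of the 12 libraries, by distance from the start in bases along the direction of the gene, with restriction sites as vertical lines. Ints6 has the same bar in nearly every untreated library, Ints9 has short bars that differ between libraries, and no RNase H library has a bar.

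The fold of the Ints6 start peak over the local background was 14.1, 16.9 and 13.3 in the siScramble libraries, 14.1, 9.07 and 8.02 in the siDDX1 libraries and 26.1, 25.1 and 28.3 in the siEXOSC3 libraries. All 3 siEXOSC3 libraries lay above the other 6, and the siScramble and siDDX1 libraries overlapped. The group means were 14.7 ± 1.90, 10.4 ± 3.25 and 26.5 ± 1.65 (SD, n = 3 each). Over the genes with a start peak in 9 of 9 libraries, 6.35% showed the 3 siEXOSC3 libraries above the other 6, and 4.02% did after the centring described next. Within a library, 92.7% to 96.5% of the start peaks had a lower fold than Ints6 in siEXOSC3, 81.5% to 87.9% in siScramble and 58.6% to 83.7% in siDDX1. The ranks of siScramble and siDDX1 overlapped and those of siEXOSC3 stood apart from both.

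Median folds of all start peaks differed between the groups, by 0.33 on the log2 scale between siEXOSC3 and siDDX1 and by 0.19 between siEXOSC3 and siScramble, so the log2 folds were centred on each library's median before testing. After centring, Ints6 differed across the 3 groups (limma F test, adjusted p = 0.0418). Of the 2489 genes tested, 32 (1.29%) passed the same threshold, and 17.0% had an unadjusted p under 0.05. The fold was higher in siEXOSC3 than in siDDX1 by 1.06 ± 0.21 on the log2 scale (SE), or 2.08-fold (limma, adjusted p = 0.0326). That contrast was passed upward by 2 genes (0.0804%), Ints6 and Gcat, a glycine metabolism gene named here after its value was seen (log2 difference 0.96), and in either direction by 0.723%. The difference of 0.67 ± 0.21 between siEXOSC3 and siScramble did not pass (limma, adjusted p = 0.173), and 0.121% of genes were called higher there and 0.723% in either direction. Nor did the difference of -0.39 ± 0.21 between siDDX1 and siScramble pass (limma, adjusted p = 0.602), a contrast with 0 genes called. If the peak names are followed instead, the high Ints6 folds belong to siScramble and the low ones to siEXOSC3.

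The call at Ints6 was lost in 6 of 9 other settings and with 7 of the 9 libraries when each was left out in turn. The adjusted p of the F test ranged from 0.0272 to 0.157 over 9 other settings and from 0.0421 to 0.199 when 1 library was left out, and it missed the threshold without any of the 3 siScramble libraries, without siDDX1 replicate 2 (0.101) or 3 (0.149) and without siEXOSC3 replicate 1 (0.199) or 2 (0.155). The direction between siEXOSC3 and siDDX1 was the same in all of these, with log2 differences of 0.63 to 1.39. The adjusted p of that contrast ranged from 0.0175 to 0.160, and its call was lost without centring, with summit fragments over the genome-wide background and without siDDX1 replicate 2 or 3 or siEXOSC3 replicate 1 or 2.

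Fold is a quotient, of the summit fragments plus 1 over the local background plus 1. Its parts were recovered from the fold and p-value of each peak. The number of fragments over the summit of the Ints6 peak was 23, 34 and 21 in siScramble, 45, 18 and 18 in siDDX1 and 41, 40 and 43 in siEXOSC3. Counting error alone is wide at these depths, with exact 95% Poisson limits of 10.7 to 28.4 for 18 fragments and 31.1 to 57.9 for 43. The local background under the summit was 0.706, 1.07 and 0.659 fragments in siScramble, 2.26, 1.09 and 1.37 in siDDX1 and 0.609, 0.635 and 0.554 in siEXOSC3. In siEXOSC3 these are the floors set by the whole genome, whereas every siDDX1 library and siScramble replicate 2 had a local background above its floor.

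Divided by the genome-wide background of its library, the summit held 32.6, 55.3 and 31.9 times the background in siScramble, 34.8, 28.7 and 33.1 times in siDDX1 and 67.3, 63.0 and 77.6 times in siEXOSC3. The siEXOSC3 libraries again lay above the other 6, as they did for 13.6% of the genes measured this way. On this scale, chosen after seeing the data, siEXOSC3 exceeded siDDX1 by 0.63 ± 0.21 on the log2 scale (limma, adjusted p = 0.106). The difference was smaller on this scale, which leaves out both the local background and the added 1, and did not pass.

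The position of the Ints6 summit differed between libraries as well. In the 3 siEXOSC3 libraries it lay at positions 1677, 1549 and 1699 counted in bases from the start into the gene, toward the BsrGI cut. In the 3 siDDX1 libraries it lay before the start, at -1074, -1085 and -806. The siScramble summits were spread over the peak, at 1699, -1088 and 15. Between the siEXOSC3 and siDDX1 libraries, summit position and local background differed along with the fold. Within groups, siScramble replicate 2 and siDDX1 replicate 1 had both the highest fold and the highest local background in fragments. The genome-wide background of siDDX1 replicate 1 was also the highest of its group, at 1.29 against 0.627 and 0.544. In siEXOSC3 the order ran the other way, with the highest fold, 28.3, and the lowest local background, 0.554, both in replicate 3. The lowest siDDX1 fold, 8.02 in replicate 3, went with a local background of 1.37 over a genome-wide background of 0.544. The part of summit position and of local background in the difference between groups was not tested.

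**Figure D3:**
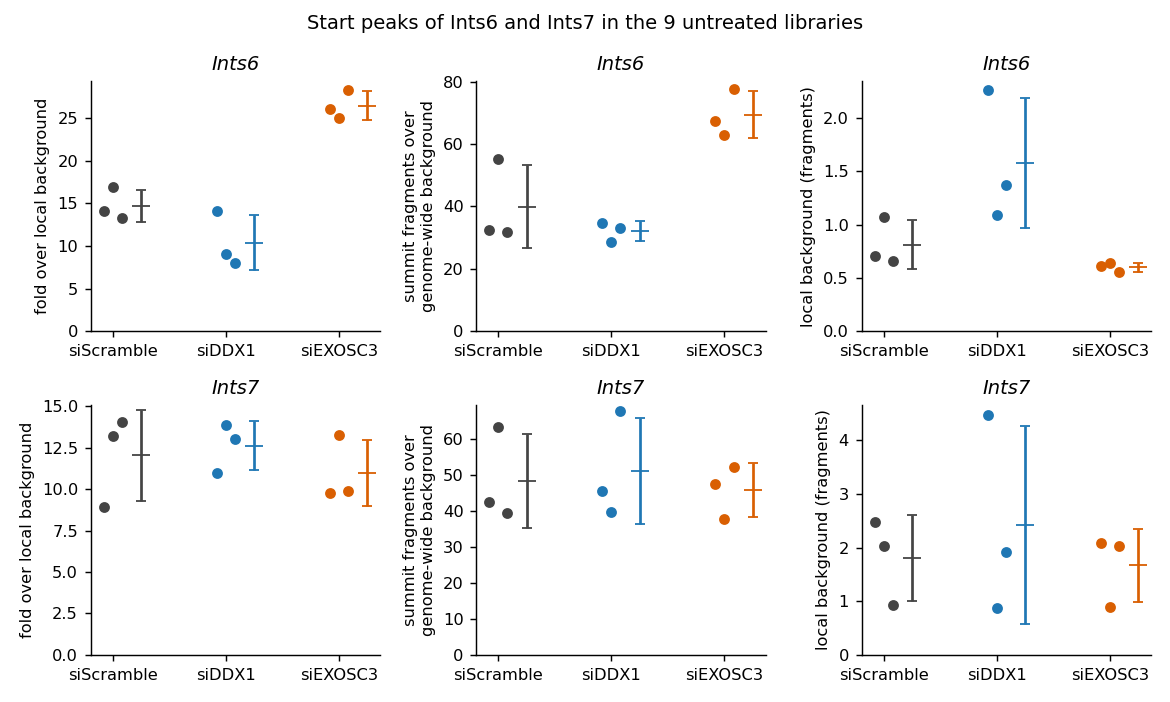
Fold over local background (left), summit fragments divided by the genome-wide background of the library (middle) and local background in fragments (right) for the start peaks of Ints6 (top) and Ints7 (bottom) in the 9 untreated libraries, with the group mean and SD beside the points. For Ints6 the siEXOSC3 points, 25.1 to 28.3 in fold, lie above the others and their local background lies lowest, and for Ints7 the groups overlap in all 3 measures.

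Ints7 (ENSMUSG00000037461.5, chr1:193399642-193446551, plus strand) encodes a scaffold subunit of the core of the complex. Its start peak had a fold of 8.91, 13.2 and 14.0 in siScramble, 10.97, 13.9 and 13.0 in siDDX1 and 9.75, 13.2 and 9.88 in siEXOSC3. The 3 groups overlapped, and no difference passed (limma F test, adjusted p = 0.454). Between siEXOSC3 and siDDX1 the log2 difference was -0.54 ± 0.27 (SE), with 7.91% of the genes tested lower, while 99.8% were lower than Ints6. Whether the start peaks of the 2 genes respond differently was not tested. Ints7 was also covered toward its end in 9 of 9 libraries, where on average 2466 bases of the last of 3 equal parts of the gene lay under peaks, against 1598 bases of the first part. Its covered bases, 3670, 7527 and 8642 in siScramble, 7223, 3028 and 5417 in siDDX1 and 3073, 2601 and 6516 in siEXOSC3, overlapped between the groups.

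**Figure D4:**
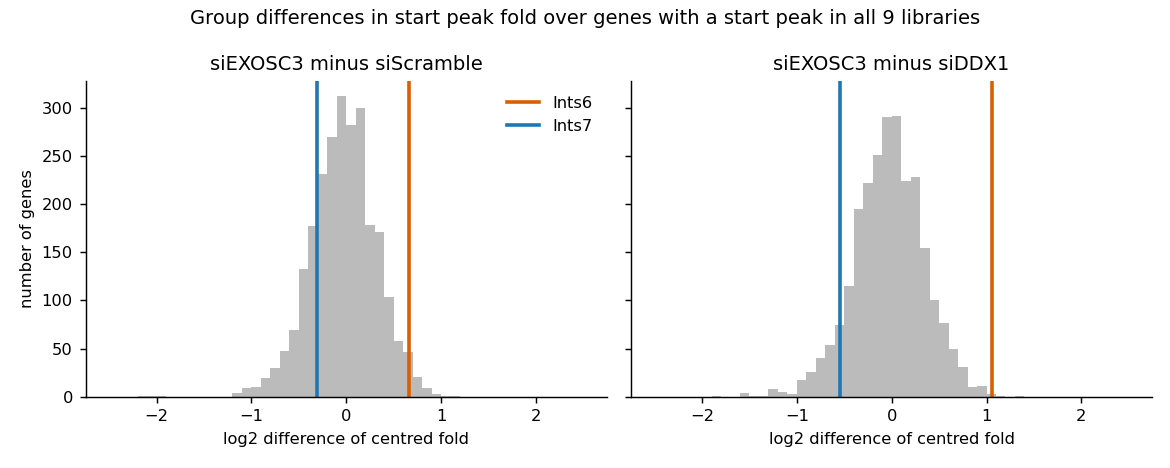
Number of genes (vertical axis) by log2 difference in centred start peak fold between siEXOSC3 and siScramble (left) and siEXOSC3 and siDDX1 (right), for genes with a start peak in all 9 untreated libraries, with Ints6 in orange and Ints7 in blue. Ints6 stands in the upper tail of both, at 0.67 and 1.06, and Ints7 in the lower part, at -0.31 and -0.54.

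Ints9 (ENSMUSG00000021975.6, chr14:65568882-65658663, plus strand) encodes the inactive partner of the RNA-cleaving subunit Ints11. Its start peaks were small and broken, with a fold of 4.69, 6.19 and 7.84 in siScramble, 6.54 and 4.92 in siDDX1 replicates 1 and 2, none in siDDX1 replicate 3, and 6.21, 6.12 and 7.72 in siEXOSC3. Summits held 7 to 14 fragments. The library without a call, siDDX1 replicate 3, had the lowest background pileup of the 9, 0.544 fragments. At nearly the same background, 0.554, siEXOSC3 replicate 3 had a start peak of fold 7.72. Peaks numbered 30338 in siDDX1 replicate 3, against 23882 in siScramble replicate 1 and 24167 in siDDX1 replicate 2, which had the call. The part of depth in the missing call was not tested.

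The 3 members with recurrent start peaks share a feature that did not enter their choice. An opposite-strand gene starts within 1 kb of the start of each. The cell cycle ubiquitin ligase subunit gene Dtl begins 229 bases upstream of Ints7, the homeobox gene Hmbox1 198 bases upstream of Ints9, and the noncoding gene 4931440J10Rik 611 bases inside Ints6 on the other strand. None of the other 7 members has such a neighbour. Of all protein-coding genes, 14.8% have one. A start peak in at least 8 of 9 untreated libraries was found in 27.8% of the genes with an opposite-strand start within 1 kb and in 12.1% of the genes without one, and in 9 of 9 in 21.7% and 9.29%. DRIP-seq reads do not tell the strand of the RNA here, so the peaks at these 3 starts cannot be assigned to the Integrator gene or its neighbour.

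Base composition before the start, but not after it, set the same 3 starts apart. The 1000 bases before the start were 61.6% G and C at Ints6, 62.3% at Ints7 and 58.6% at Ints9, higher than in 95.1%, 95.7% and 91.3% of protein-coding genes, and 39.8% to 48.4% at the other 7 members. At Ints7 and Ints9 most of these bases lie inside the neighbour, which begins 229 and 198 bases upstream. The feature is thus not separate from the neighbour there. The 1000 bases after the start were 70.4% G and C at Ints6, higher than in 96.6% of genes, but 49.5% at Ints7 and 45.1% at Ints9. At the other 7 members they were 47.7% to 60.2%, highest at Ints8, which had no start peak. Excess of G over C on the coding strand after the start is a known trait of R-loop-forming starts. It was 0.20 at Ints7, above 95.1% of genes, 0.09 at Ints9 and -0.04 at Ints6, below the median of 0.04 over all genes. At the other 7 members it ran from -0.11 at Ints5 to 0.13 at Ints8, which is higher than at Ints9. Starts with a peak in 9 of 9 libraries had a median of 60.3% G and C after the start and starts without any 50.2%. Before the start the medians were closer, at 52.4% and 46%.

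The 250 bases before the start are given for Ints6 and Ints7, with a start peak in 9 of 9 untreated libraries, and for Ints1 and Ints10, which had none, along the strand of the gene, with runs of 4 or more G in capitals.
Ints6, chr14:63379950-63380199, minus strand: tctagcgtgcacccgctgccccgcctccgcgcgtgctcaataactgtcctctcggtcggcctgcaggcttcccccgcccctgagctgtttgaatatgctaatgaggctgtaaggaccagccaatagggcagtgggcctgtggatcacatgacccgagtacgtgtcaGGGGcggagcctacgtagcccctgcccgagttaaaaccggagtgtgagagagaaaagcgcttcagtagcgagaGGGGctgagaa
Ints7, chr1:193399392-193399641, plus strand: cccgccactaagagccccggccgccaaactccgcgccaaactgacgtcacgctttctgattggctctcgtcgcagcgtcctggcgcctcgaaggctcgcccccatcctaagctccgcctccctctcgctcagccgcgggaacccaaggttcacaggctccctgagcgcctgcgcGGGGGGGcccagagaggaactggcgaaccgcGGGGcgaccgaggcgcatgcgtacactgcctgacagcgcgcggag
Ints1, chr5:140251633-140251882, minus strand: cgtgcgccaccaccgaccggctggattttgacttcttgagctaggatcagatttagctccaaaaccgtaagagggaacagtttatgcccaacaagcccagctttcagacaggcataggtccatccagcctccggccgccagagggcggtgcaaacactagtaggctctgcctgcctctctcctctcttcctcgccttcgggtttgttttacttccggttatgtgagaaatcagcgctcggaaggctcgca
Ints10, chr8:71317578-71317827, plus strand: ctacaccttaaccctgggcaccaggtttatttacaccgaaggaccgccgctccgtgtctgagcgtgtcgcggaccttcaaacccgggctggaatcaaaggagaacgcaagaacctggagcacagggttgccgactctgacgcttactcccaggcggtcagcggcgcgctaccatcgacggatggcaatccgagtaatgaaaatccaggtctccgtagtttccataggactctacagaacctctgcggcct

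Runs of GGGG or more on the coding strand numbered 2 at Ints6, Ints7 and Ints5, 1 at Ints4, Ints8 and Ints9 and 0 at Ints1, Ints3 and Ints10. Runs of CCCC or more, which are G runs of the other strand, numbered 4 at Ints6, 2 at Ints7 and Ints8, 1 at Ints4, Ints5 and Ints9 and 0 at Ints1, Ints2, Ints3 and Ints10. At least 1 G run was found before 63.97% of all protein-coding starts, before 74.2% of those with a start peak in 9 of 9 libraries and before 59.2% of those without any. At least 1 C run was found before 64.6% of all protein-coding starts, 77.2% of those with a start peak in 9 of 9 libraries and 58.6% of those without any. Ints2, with 3 G runs, Ints5 and Ints8 had no start peak in any library.

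Ints1 (ENSMUSG00000029547.6, chr5:140227236-140251632, minus strand), the largest subunit and a scaffold of the core, was the most widely covered member. Peaks covered 11080, 16338 and 15110 bases in siScramble, 15472, 8700 and 12438 in siDDX1 and 15657, 16053 and 17147 in siEXOSC3, or on average 53.9% of its window. The lowest value fell in siDDX1 replicate 2, which had the second lowest number of peaks of the 9 libraries. None of these bases lay within 1 kb of the start, where all 9 libraries were bare. On average 6058 bases of the middle and 5948 of the last of 3 equal parts of the gene were covered against 1633 of the first. Exons made up 28.5% of the covered bases of the gene and 29.2% of the gene, a similar share. The widest peak, 8903 bases in siEXOSC3 replicate 3 (chr5:140229882-140238784), also had the highest fold, 21.5, while the other 8 libraries had a highest fold of 7.38 to 12.4.

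Ints3 (ENSMUSG00000027933.4, chr3:90195310-90237558, minus strand), which also scaffolds a complex that binds single-stranded DNA at breaks, was covered mainly toward its end. Covered bases were 4323, 8813 and 10189 in siScramble, 8430, 7450 and 6660 in siDDX1 and 7420, 6620 and 10542 in siEXOSC3. Of its covered gene bases 83.3% lay in the last such part and 1.79% in the first. Exons made up 26.0% of these bases and 10.5% of the gene. A start peak was called in 2 libraries, siDDX1 replicate 2 and siEXOSC3 replicate 1. In 6 libraries a peak at its end began at the same EcoRI site, and in 6 libraries a body peak began at a HindIII site. Both sites are shown in capitals, with the bases around them, on the plus strand.
Ints3 end peak, EcoRI, chr3:90192967-90192996: ccgacggcttaaGAATTCtttgggtctagc
Ints3 body peak, HindIII, chr3:90204763-90204792: ccagaagcagcaAAGCTTggggacactggc

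Ints5 (ENSMUSG00000071652.5, chr19:8967477-8972380, plus strand), a core subunit whose short gene is mostly exon, had 2388, 3519 and 2784 covered bases in siScramble, 3919, 1480 and 2492 in siDDX1 and 3801, 3133 and 4146 in siEXOSC3, or 44.5% of its window on average. In 8 of 9 libraries its peaks ran past its end, where Ganab, a glucosidase gene, starts 200 bases further on, so the end of Ints5 and the start of Ganab cannot be told apart. Ints4 (ENSMUSG00000025133.8, chr7:104629466-104689907, plus strand), the scaffold of the cleavage module, was covered within the gene in its last part alone, in 8 of 9 libraries. Its values were 1171, 2291 and 2858 bases in siScramble, 1079, 0 and 756 in siDDX1 and 1224, 2020 and 1506 in siEXOSC3. The 3 siDDX1 libraries were the lowest of the 9, but narrowly, with 1171 bases in the next library against 1079 in the highest of them. The share of all genes with this order was not counted. The library with 0 bases, siDDX1 replicate 2, held 24167 peaks, the second lowest number.

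Little was found at the remaining members. Ints2 (ENSMUSG00000018068.7, chr11:86024183-86071077, minus strand), another core subunit, had 0, 2352 and 2621 covered bases in siScramble, 1043, 280 and 255 in siDDX1 and 0, 291 and 1163 in siEXOSC3. Ints8 (ENSMUSG00000040738.4, chr4:11126305-11181405, minus strand), which binds PP2A together with Ints6, had 353 bases in siScramble replicate 2 and 289 in siDDX1 replicate 1. Ints10 (ENSMUSG00000031864.8, chr8:71317828-71353309, plus strand), of the auxiliary module, had 697 bases in siScramble replicate 3 alone, in the library with the second most peaks. A missing call at this depth does not show that hybrids were absent.

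**Figure D5:**
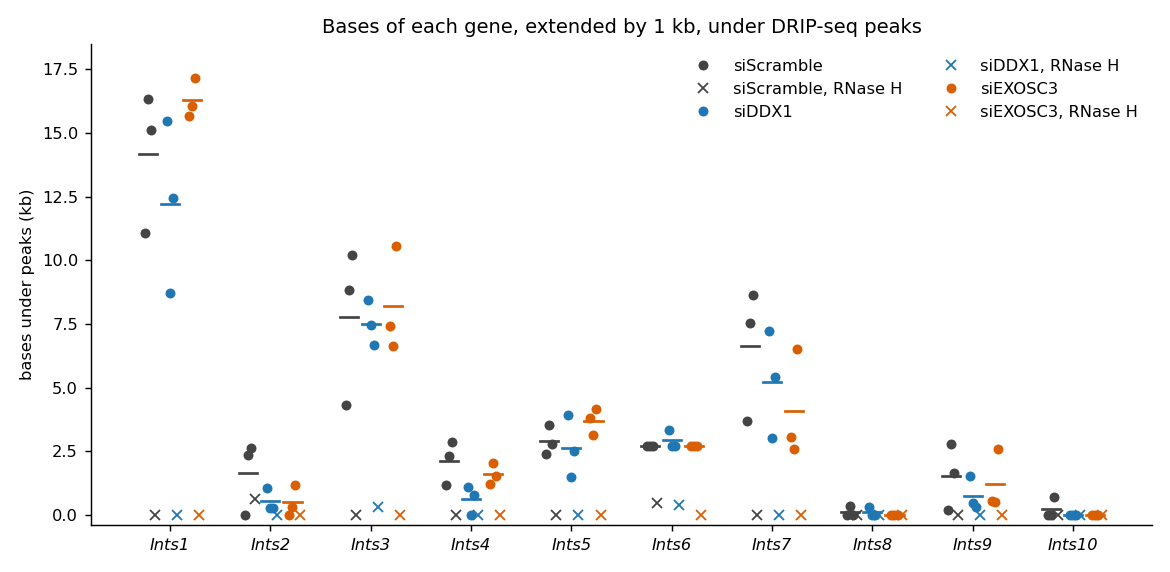
Bases under peaks, in kb, for the 10 genes with 1 kb added on both sides, as points for the 3 untreated libraries of each group, lines for the group means and crosses for the RNase H library. Ints1 holds the most, 8.7 to 17.1 kb, the points of Ints6 coincide near 2.7 kb, and the crosses lie at or near 0.

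No member passed the test of covered bases across the 3 groups, a test with little room to pass after adjustment. Of the 8 members covered in at least 3 libraries, none had an exact permutation p under 0.05, the lowest being Ints4 (F statistic over 280 splits, p = 0.0571) and the next Ints1 (p = 0.211), and each adjusted p was 1. Over the 9610 genes tested, 0 passed the adjusted threshold and 3.24% had an unadjusted exact permutation p under 0.05. The smallest p that 9 libraries in 3 groups allow is 0.00357, which is too large to pass an adjustment over so many genes unless a large share of them change. Group means of Ints1 were 14176 ± 2751, 12203 ± 3392 and 16286 ± 772 bases in siScramble, siDDX1 and siEXOSC3 (SD, n = 3 each). Those of Ints4 were 2107 ± 858, 612 ± 554 and 1583 ± 404. Without siScramble replicate 1, which had the fewest peaks, the unadjusted exact permutation p was 0.0107 for Ints4 and 0.0357 for Ints2, and when each list was cut to its strongest 23882 peaks it was 0.0286 for Ints4. These were the lowest values found. With each of the 9 libraries left out in turn it reached 0.196 for Ints4 and 0.754 for Ints2. Over 6 other settings it reached 0.146 for Ints4 and ran from 0.286 to 0.444 for Ints2. No share of all genes under 0.05 is given for these alternatives.

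Digestion with RNase H removed nearly all peaks from the Integrator genes. The untreated libraries held 285 peaks at the 10 genes and the RNase H libraries 4. Yet the background pileup of the RNase H libraries was 1.62 to 2.30 times the mean of the untreated libraries. Ints1, Ints4, Ints5, Ints7, Ints8, Ints9 and Ints10 had no peak in any RNase H library, and no member had a start peak there, as 1.55% of all protein-coding genes had in at least 1. Covered bases fell in 5 members, Ints1, Ints3, Ints5, Ints6 and Ints7, each with an exact permutation p of 0.0156, the smallest that 64 assignments of the RNase H label allow, and an adjusted p of 0.0321. Of the 10014 genes tested, 46.2% were lower at the same threshold. At an unadjusted p under 0.05, 6 of the 8 members tested were lower, against 58.0% of all genes. The mean differences, RNase H minus untreated, were -14222 bases at Ints1, -7727 at Ints3, -5300 at Ints7, -3074 at Ints5 and -2500 at Ints6, and each RNase H library lay below every untreated one. Ints4 (exact permutation p = 0.0313, adjusted p = 0.0560), Ints9 (p = 0.0938, adjusted p = 0.131) and Ints2 (p = 0.297, adjusted p = 0.342) did not pass. Ints8 and Ints10 were covered too rarely to be tested. Without siScramble replicate 2 the adjusted p of Ints7 was 0.0771, without siDDX1 replicate 2 that of Ints4 was 0.0392, and with peaks of a -log10 q of at least 5 that of Ints5 was 0.0611.

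The few RNase H peaks did not lie where the untreated ones did. At Ints6 a peak in the first part of the gene was called in the RNase H library of siScramble (chr14:63374112-63374590, fold 9.63, 24 fragments) and again in that of siDDX1 (chr14:63374222-63374590, fold 5.54, 11 fragments), with the summit 5525 bases from the start in both. It covers intron only, and 0 of 9 untreated libraries had a peak there. At Ints2 the RNase H library of siScramble had an intronic peak of 624 bases that no untreated library shared. At Ints3 that of siDDX1 had one of 301 bases, ending at chr3:90225323. It met a peak of 1 untreated library, siDDX1 replicate 2, only at the edge, as that peak began at 90225320. A gene window with a peak in at least 1 RNase H library was found for 3 members and for 13.5% of all genes.

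Among the other 9 Integrator subunits, the accessory proteins and the Ints6 paralogue included, 0 had a start peak in 9 of 9 untreated libraries, 5 had one in some and 4 in none. Over all protein-coding genes the shares were 11.1%, 22.9% and 65.9%. Of the 7 tested, 2 were lower with RNase H past the adjusted threshold, against 46.2% of all genes tested. One was Cpsf3l, the older name of Ints11, which carries the cleaving activity. The other was Obfc2a, which codes for the single-stranded DNA-binding partner of Ints3 (exact permutation p = 0.0156, adjusted p = 0.0321 each). Covered bases across the 3 groups passed for 0 of the 7 tested. An unadjusted exact permutation p under 0.05 was found for 2, 2010321M09Rik, the older name of Ints14 (p = 0.025), and Ddx26b (p = 0.0429), named here for that reason after their values were seen, against 3.24% of all genes. Ddx26b, the paralogue of Ints6, was the one subunit with all-or-none start peaks. They were called in 3 of 3 siEXOSC3 libraries, in 2 of 3 titled siScramble and in 0 of 3 titled siDDX1, with 0, 345 and 343 covered bases in siScramble, 0 in each siDDX1 library and 293, 855 and 1363 in siEXOSC3. The RNase H library of siScramble had 658 covered bases at Ddx26b, though no start peak. Loss of covered bases with RNase H did not pass at this gene (exact permutation p = 0.75, adjusted p = 0.759). Start peaks in 3 of 3 siEXOSC3 and 0 of 3 siDDX1 libraries were found for 0.389% of all genes and the reverse for 0.0581%. Between siEXOSC3 and siScramble the shares were 0.514% and 0.0671%, and between siDDX1 and siScramble 0.0715% and 0.107%, the first named group holding the peaks in the first share of each, and 0 members showed any such pattern. The folds of the Ddx26b peaks were low, 4.954 and 5.397 in siScramble replicates 2 and 3 and 6.21, 3.67 and 3.86 in siEXOSC3, so that 2 of the 3 siEXOSC3 folds lay below both siScramble ones, and with 3 libraries against 3 an exact test cannot go below 0.1.

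The 13 partner genes examined encode PP2A, which acts with Integrator, the pausing factors NELF and DSIF, and the SNAPc proteins that start transcription of small nuclear RNA genes. Of these, 5 had a start peak in 9 of 9 untreated libraries, Ppp2r1a, Ppp2ca, Snapc2, Snapc4 and Snapc5, with 3 in some and 5 in none. The same shares over all protein-coding genes were 11.1%, 22.9% and 65.9%. Their median coverage was 32.1% of the gene window, against 2.75% for the 10 members, 5.53% for the other subunits and 0% over all protein-coding genes. Covered bases fell with RNase H in 8 of the 13, against 46.2% of all genes tested, and 0 of the 5 tested for start peak fold passed across the groups (limma F test, lowest adjusted p = 0.139, at Snapc2).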

How the data were processed

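DRIP-seq was performed on N2a cells with the S9.6 antibody after digestion with BsrGI, EcoRI, HindIII, SspI and XbaI. The authors aligned reads to mm9 with Bowtie2 2.4.4 and called peaks per library with MACS2 2.2.6 against input. The deposited lists give each peak's fold over local background (a ratio) and the −log10 of its p and q values. Read counts and the input library were not used here.

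Groups follow the sample titles. Peaks were intersected with GENCODE vM1 genes on mm9, and the highest fold within 1 kb of the start was kept. Summit fragments were recovered from fold and p (tolerance 0.005 in log10 p). Genes covered in at least 3 libraries were compared by exact permutation of covered bases, and centred log2 fold by limma 3.58.1 (R 4.3.3), with Benjamini-Hochberg adjustment over all genes tested and a threshold of 0.05. All 10 members were named, and other listed genes by passing a test or by all-or-none peaks. Markers and genes with a start peak in 9 of 9 libraries were named to describe their lists. Members and lists were chosen with earlier results of these data known. Libraries came from separate plates, and p-values measure the spread between them. Intervals cover counting error only. Scripts (Python 3.11.15, scipy 1.17.1) were tested on simulated data. Alternatives are given in the closing section. Some listed items are not reported here.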

Additional observations from a re-analysis of the deposited data

How the results depend on the processing

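Between siEXOSC3 and siDDX1 the Ints6 start peak fold kept its direction in all 18 alternatives. Its log2 difference of 1.06 became 1.39 without centring and 0.63 with summit fragments over the genome-wide background, a setting added after seeing the data, as was the whole gene window, and 0.93 to 1.18 with 1 library left out. That contrast lost its call in 6 of them, without centring (adjusted p = 0.0532), with summit fragments over background (0.106), without siDDX1 replicate 2 or 3 and without siEXOSC3 replicate 1 or 2. The limma adjusted F p of 0.0418 at Ints6 became 0.0708 without centring, 0.0652 and 0.0599 with start windows of 500 bases and 2 kb, 0.0566 with a peak in at least 2 libraries of each group, 0.157 with summit fragments over background, and 0.0421 to 0.199 with 1 library left out. With the replicate number as a block it was 0.0535, and the genes called fell from 32 to 8 in the F test and from 18 to 6 between siEXOSC3 and siDDX1, while same-numbered libraries deviated together with correlations of -0.10 to 0.11 only.

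Genes called in the F test, 32, became 6 without centring, 8 at 500 bases, 21 at 2 kb, 8 with at least 2 libraries and 0 to 38 with 1 library left out. Between siEXOSC3 and siDDX1 the 18 became 0 without centring, 8 with at least 2 libraries, 31 with a trended robust prior, 31 over the whole gene and 2 to 67 with 1 library left out. Between siEXOSC3 and siScramble the 18 became 4 without centring, 10 at 2 kb, 3 with at least 2 libraries and 0 to 20 with 1 library left out. Between siDDX1 and siScramble the 0 became 2 without centring, 1 at 500 bases, 2 with at least 2 libraries, 4 with the trended robust prior, 4 with summit fragments over background and 0 to 6 with 1 library left out. The cause of these shifts was not tested. The covered-base test called 0 genes under each alternative run. Summits of 7 to 59 fragments limit what single peaks can show.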
